A study of Mus musculus with 2 samples.

Results

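Dual specificity MAP kinase phosphatases are enzymes that remove phosphate from both the threonine and the tyrosine of the activation loop of a MAP kinase and so switch it off. Their 8 members followed here, Dusp1, Dusp2, Dusp4, Dusp5, Dusp6, Dusp8, Dusp10 and Dusp16, were chosen by gene symbol, among 55536 genes of the annotation, of which 22028 are protein-coding. The tables list 25 transcripts of these members, 4 of them annotated as retaining an intron, and all transcripts were kept. Nucleoplasmic RNA was measured after depletion of ribosomal RNA in 2 libraries of 1 group, biological replicates 1 and 2. Both came from macrophages grown from bone marrow of the inbred mouse strain C57BL/6J. The cells were exposed to 100 ng/ml Lipid A, the part of bacterial lipopolysaccharide sensed by Toll-like receptor 4, for 12 h. They then had 12 h without it and a further exposure to 100 ng/ml for 30 min, so every value comes from cells that had met the ligand before. Unstimulated, once-stimulated and cytoplasmic RNA are not analysed here, so levels are described and no response is measured. The labels give separate biosamples and the same donor identifier, so the spread between the libraries can be technical in part. Sex and age were not collected, and the starting RNA was 1 µg for replicate 1 and 500 ng for replicate 2.

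As background, Toll-like receptor 4 activates 3 branches of MAP kinases, named ERK, JNK and p38, which drive transcription and the stability of cytokine mRNAs. Dusp1, Dusp2, Dusp4 and Dusp5 encode nuclear phosphatases of the immediate early kind, whose transcription the kinases themselves turn on. Dusp6 encodes a cytoplasmic phosphatase of ERK, while Dusp8, Dusp10 and Dusp16 encode phosphatases of JNK and p38. Dusp1 is known in macrophages as a brake on p38 and on inflammatory cytokines.

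The libraries held 23845991 (replicate 1) and 20675294 (replicate 2) counts on genes. A count of 0 allows up to 3 counts, or 0.126 and 0.145 CPM (counts scaled by library size). Counting intervals and floors here cover counting error only, while the deposited credibility intervals give the estimation error within a library. A chi-square of 108 per gene over 15051 genes showed that the libraries are not 1 library listed again. Levels are in TPM, counts per effective length scaled to a fixed total in each library. Of 10 macrophage markers, 9 reached 1 TPM in each library, and the 10 summed to 2134 and 3566 TPM. The summed level of 5 T cell markers was 0.19 and 0.03, of 5 B cell markers 0.56 and 1.14, of 6 neutrophil markers 1.32 and 2.39 and of 5 dendritic cell markers 1.43 and 2.55 TPM. That of 4 fibroblast markers was 0.25 and 0.11 and of 3 endothelial markers 1.02 and 1.64 TPM. Cd2, Cd3e, Cd8a, Elane, Ly6g and Tek were listed at 0 in both. Malat1, Neat1 and Xist, RNAs kept in the nucleus, summed to 12851 and 22334 TPM. Mitochondrial mRNAs, which are made outside the nucleus, held 2.81% and 6.85% of counts in replicates 1 and 2, and the part of this difference in the results was not tested.

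The start regions of Dusp1, Dusp2, Dusp5 and Dusp8 are shown first, because Dusp1 and Dusp2 stood far above the other members while Dusp5 and Dusp8, whose windows hold matches of the same kind or of the serum response kind, were low. Each window runs from 250 bases before to 50 bases after the start given by RefSeq for build GRCm38.p6, 5′ to 3′ on the strand of the gene. A window was available for 7 of the 8 members, all but Dusp4. Capitals mark matches on either strand to CRE (TGACGTCA), its core (TGACG, which lies within every CRE), AP-1 (TGANTCA), the EGR site (GCGTGGGCG or GCGGGGGCG), the TATA box (TATAAA), the CArG box or the kB motif. The windows are chr17:26508423-26508722 on the minus strand for Dusp1, chr2:127335909-127336208 on the plus strand for Dusp2, chr19:53528895-53529194 on the plus strand for Dusp5 and chr7:142095235-142095534 on the minus strand for Dusp8.
Dusp1: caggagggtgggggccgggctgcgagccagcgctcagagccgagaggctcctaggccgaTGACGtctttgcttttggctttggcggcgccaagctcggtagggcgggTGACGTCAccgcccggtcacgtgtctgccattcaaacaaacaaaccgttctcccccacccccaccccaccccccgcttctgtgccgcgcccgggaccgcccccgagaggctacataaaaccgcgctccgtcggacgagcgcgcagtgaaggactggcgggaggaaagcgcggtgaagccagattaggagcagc
Dusp2: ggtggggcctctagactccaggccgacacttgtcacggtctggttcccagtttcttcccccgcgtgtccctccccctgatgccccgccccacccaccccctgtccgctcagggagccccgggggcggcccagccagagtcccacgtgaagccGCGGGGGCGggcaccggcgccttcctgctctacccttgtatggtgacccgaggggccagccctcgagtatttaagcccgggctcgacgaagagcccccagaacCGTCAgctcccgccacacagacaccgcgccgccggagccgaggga
Dusp5: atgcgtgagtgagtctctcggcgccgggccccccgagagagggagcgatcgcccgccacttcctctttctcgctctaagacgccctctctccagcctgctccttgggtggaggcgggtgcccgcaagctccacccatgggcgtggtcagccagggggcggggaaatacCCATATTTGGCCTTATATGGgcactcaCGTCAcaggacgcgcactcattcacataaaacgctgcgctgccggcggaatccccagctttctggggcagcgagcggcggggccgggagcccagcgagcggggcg
Dusp8: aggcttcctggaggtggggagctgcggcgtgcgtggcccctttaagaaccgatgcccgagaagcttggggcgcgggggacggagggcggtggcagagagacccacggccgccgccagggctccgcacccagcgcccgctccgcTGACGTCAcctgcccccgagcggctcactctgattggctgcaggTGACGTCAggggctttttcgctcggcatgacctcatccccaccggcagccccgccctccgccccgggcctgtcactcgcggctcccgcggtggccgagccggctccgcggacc

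CRE, the element bound by CREB and ATF factors, was found in the windows of Dusp1 and Dusp8, that is in 2 of 7 members with a window, against 1.79% of all 32851 promoter windows. Dusp1 had 1 CRE, from base -143 to -136 of the start, and a separate core from -191 to -187. Dusp8 had 2, from -107 to -100 and from -63 to -56. The core was found in 5 of 7 members, Dusp1, Dusp2, Dusp5, Dusp8 and Dusp16, against 20.8% of all windows. The CArG box, bound by serum response factor, was found in Dusp5 only among the 7, in adjoining copies from -82 to -73 and from -72 to -63, against 1.63% of all windows. Dusp2 held the EGR form GCGGGGGCG from -98 to -90, which 2.91% of all windows hold. None of the 7 windows held GCGTGGGCG, AP-1, the TATA box or the kB motif, found in 0.612%, 7.81%, 13.6% and 8.46% of all windows. These matches are a description of letters. A CRE was present in the window of a member at over 100 TPM (Dusp1) and of one below 1 TPM (Dusp8).

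Dusp1 and Dusp2 stood at over 100 TPM, and the other 6 members below 6 TPM, in both libraries. Dusp1, on chromosome 17 (mm10, 26505590 to 26562128), had 106.98 TPM in replicate 1 and 141.95 TPM in replicate 2, or 124 ± 24.7 (SD, n = 2). Dusp2, on chromosome 2 (127336159 to 127338376), had 117.35 and 110.92 TPM, or 114 ± 4.55 (SD, n = 2). The libraries did not give the same order, as Dusp1 was below Dusp2 in replicate 1 and above it in replicate 2, so that this pair did not differ beyond its spread. Dusp1 rested on 6056 and 5827 counts and Dusp2 on 4689 and 3050. By mean TPM, Dusp1 was 241st and Dusp2 275th of the 22028 protein-coding genes. The lower of the pair was 24.7 times the next member in replicate 1 and 18.9 times in replicate 2. Together they held 95.3% and 94.5% of the summed TPM of the members, 235 and 268 TPM. In bulk RNA, a lower level in every cell and expression in fewer cells cannot be told apart.

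**Figure D1:**
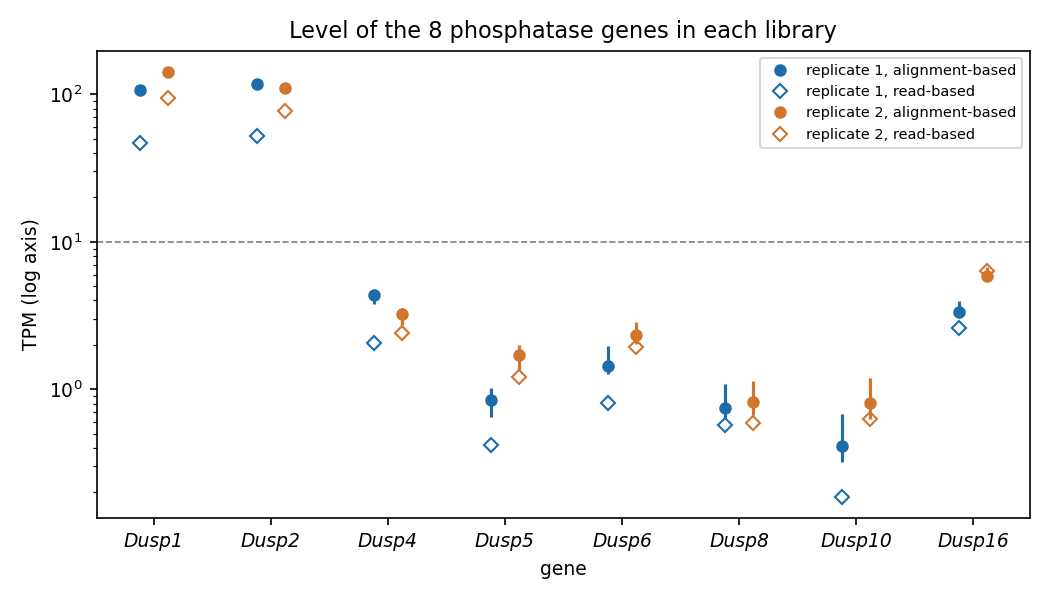
Level of each member gene in TPM on a log axis, by library (blue, replicate 1; orange, replicate 2). Filled points are the alignment-based table with its deposited credibility bounds as lines, open diamonds are the read-based table, and the dashed line is 10 TPM. Dusp1 and Dusp2 lie above 40 TPM in every table and library, and the other 6 members lie below 10 TPM in all.

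The 2 other nuclear members were much lower. Dusp4, a phosphatase of ERK and JNK on chromosome 8 (34807297 to 34819894), had 4.33 and 3.26 TPM on 422 and 228 counts. Dusp5, a phosphatase of ERK on chromosome 19 (53529109 to 53542431), had 0.85 and 1.72 TPM on 73.74 and 108 expected counts. Dusp5 was the member with the largest ratio of scaled counts between the libraries, as given below. Dusp6, the cytoplasmic ERK phosphatase on chromosome 10 (99263231 to 99267489), had 1.43 and 2.35 TPM on 137 and 150 counts.

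Of the JNK and p38 phosphatases, Dusp16 was the highest. It lies on chromosome 6 (134715468 to 134792625) and had 3.32 and 5.86 TPM on 527 and 615 counts. Dusp8, on chromosome 7 (142079490 to 142095843), had 0.75 and 0.82 TPM on 133 and 104 counts. Dusp10, on chromosome 1 (184013302 to 184075636), had 0.41 and 0.81 TPM on 41 and 58 counts. Dusp8 and Dusp10 were thus below 1 TPM in both libraries, yet well above the floor of 3 counts.

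Ordered by mean TPM, the members ran Dusp1, Dusp2, Dusp16 (4.59 ± 1.8), Dusp4 (3.79 ± 0.757), Dusp6 (1.89 ± 0.651), Dusp5 (1.28 ± 0.615), Dusp8 (0.785 ± 0.0495) and Dusp10 (0.61 ± 0.283; all SD, n = 2). The ranges over the libraries overlapped between the neighbours Dusp1 and Dusp2, Dusp16 and Dusp4, Dusp6 and Dusp5, and Dusp8 and Dusp10. They did not overlap between Dusp2 and Dusp16, between Dusp4 and Dusp6, or between Dusp5 and Dusp8, the last by a narrow margin. At 10 TPM or more in both libraries stood 2 of 8 members, against 15.6% of protein-coding genes. At 100 TPM or more stood the same 2, against 1.2%, and at 1 TPM or more 5 of 8, against 41.9%. In the read-based table, given below, neither of the 2 reached 100 TPM in either library. The median member had 2.38 and 2.8 TPM, against 0.28 and 0.33 TPM for all protein-coding genes and 3.08 and 3.94 TPM for those listed above 0 in that library.

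Much of the Dusp1 RNA lay in transcript models that keep an intron. Retained-intron transcripts held 73.7% of Dusp1 TPM in replicate 1 and 64.7% in replicate 2, or 69.2% ± 6.38 (SD, n = 2). In Dusp2 they held 41.5% and 47.4%, or 44.5% ± 4.21 (SD, n = 2). The median over 2456 protein-coding genes with such a transcript and 10 TPM or more in both libraries was 27.9% and 22.5%. Dusp1 lay above 97.6% and 95.1% of these genes and Dusp2 above 72.4% and 83.8%. At a share of 50% or more in both libraries, a threshold chosen after the values were seen, stood Dusp1 and not Dusp2, against 11.5% of these genes. By expected counts in place of TPM the share was 68.8% and 65.5% in Dusp1, but 21.2% and 25.8% in Dusp2, whose retained-intron model of 756 bases is shorter than its coding transcript of 1617.

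**Figure D2:**
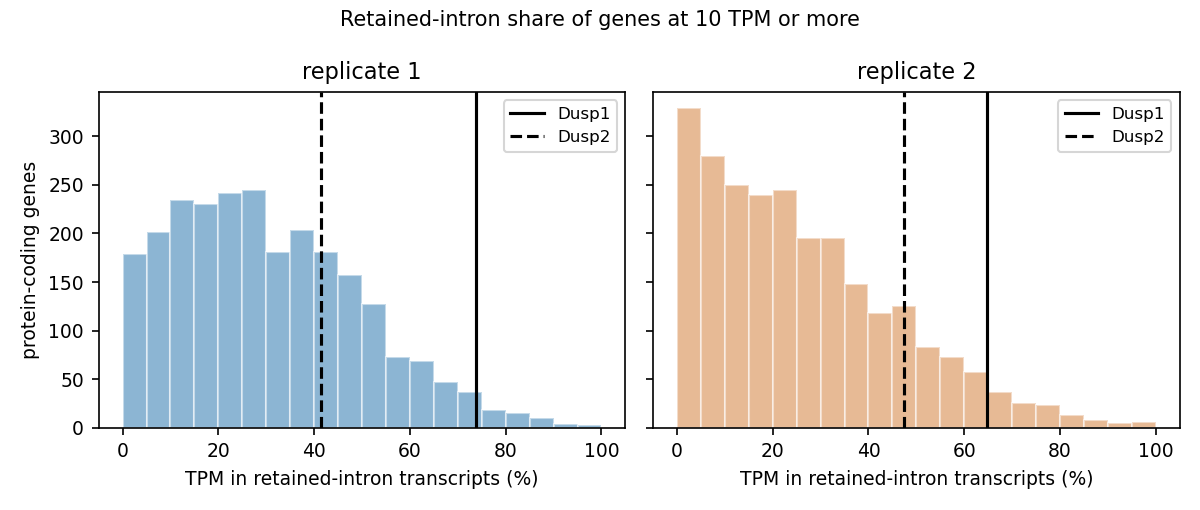
Percent of each gene's TPM in retained-intron transcripts (x axis) and number of protein-coding genes (y axis), for 2456 genes with such a transcript and 10 TPM or more, by library. The lines are Dusp1 (73.7% and 64.7%) in the upper tail and Dusp2 (41.5% and 47.4%) nearer the middle.

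Dusp1 has 2 such models. Dusp1-203, of 2313 bases, is the coding structure with its second intron kept, and had 40.26 and 54.49 TPM. Dusp1-204, of 839 bases, keeps the third intron, and had 38.62 and 37.38 TPM. Dusp1-203 was the transcript with the highest TPM in both libraries. Of the 2 members with 2 or more transcripts and 10 TPM, Dusp1 was led by a transcript without a coding sequence in both libraries and Dusp2 was not, against 9.12% of such protein-coding genes. With 2 members nothing is read from this share, and none of the 6 lower members was led by such a transcript in both libraries. The single retained-intron model of Dusp2, Dusp2-202, keeps the second intron, ends within the third, and had 48.69 and 52.62 TPM. It was below the coding transcript Dusp2-201 in each library, which had 68.66 and 58.3 TPM.

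**Figure D3:**
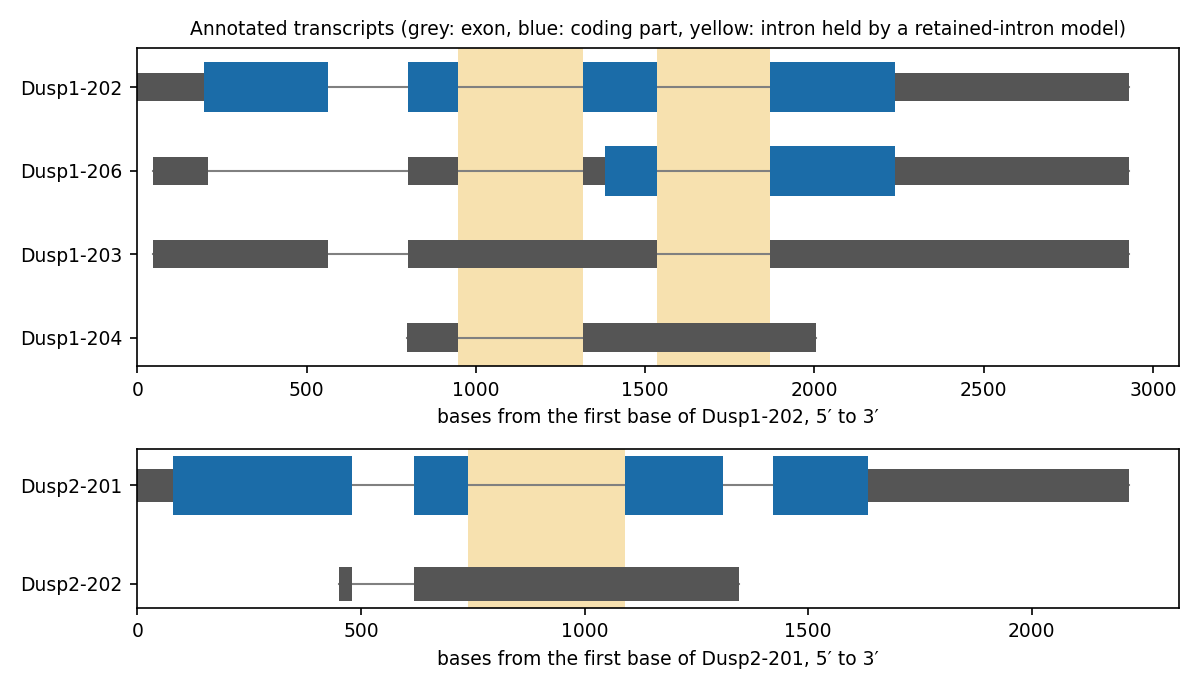
Annotated structure of the Dusp1 and Dusp2 transcripts at 1 TPM or more, drawn 5′ to 3′ in bases from the first base of the main coding transcript (grey, exon; blue, coding part; thin line, intron). Yellow bands mark the introns that a retained-intron model keeps, the second and the third of Dusp1 and the second of Dusp2.

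The edges of these 3 introns are shown because the retained-intron values rest on reads within them. Each line gives 20 exon bases beside 40 intron bases, 5′ to 3′ on the strand of the gene, with the first or last pair of intron bases in capitals. Sequences are from the GENCODE M21 transcripts. For Dusp1 intron 2, chr17:26507205-26507573, they span chr17:26507534-26507593 and chr17:26507185-26507244. For Dusp1 intron 3, chr17:26506651-26506984, they span chr17:26506945-26507004 and chr17:26506631-26506690. For Dusp2 intron 2, chr2:127336899-127337248, they span chr2:127336879-127336938 and chr2:127337209-127337268.
Dusp1 intron 2, start: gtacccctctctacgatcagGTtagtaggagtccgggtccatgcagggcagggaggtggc
Dusp1 intron 2, end: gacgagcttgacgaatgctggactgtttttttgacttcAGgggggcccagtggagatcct
Dusp1 intron 3, start: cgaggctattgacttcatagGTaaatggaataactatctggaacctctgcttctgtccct
Dusp1 intron 3, end: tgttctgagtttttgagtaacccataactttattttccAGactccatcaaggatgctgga
Dusp2 intron 2, start: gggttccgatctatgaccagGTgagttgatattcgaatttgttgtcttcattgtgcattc
Dusp2 intron 2, end: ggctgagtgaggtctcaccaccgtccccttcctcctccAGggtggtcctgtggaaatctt

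All 3 introns begin with GT and end with AG, the usual bases of spliced introns. They are 369, 334 and 350 bases long, with a GC content of 50.9%, 46.4% and 47.4%. Read on from the coding frame, each holds an early stop codon. In Dusp1 intron 2 it is TAG after 108 intron bases, in Dusp1 intron 3 TAG after 44, and in Dusp2 intron 2 TGA after 6. The coding sequence before these introns is 513, 733 and 522 bases long, of 1101 in Dusp1 and 954 in Dusp2. A transcript that kept any of them would thus end its reading frame before the annotated stop.

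What the tables can show of introns differs between members. Of the 3 introns of the main Dusp1 transcript, 2 lie whole within another model, as does 1 of 3 in Dusp2. None of the introns of Dusp4, Dusp5, Dusp6, Dusp8, Dusp10 or Dusp16 does, so reads from their introns, outside annotated exons, had no transcript to be counted in. These genes have 1462 intron bases (Dusp6) to 72049 (Dusp16), while Dusp1 has 940 and Dusp2 601. Dusp16-206, the remaining retained-intron model, keeps part of an intron and was listed at 0 in both libraries in the alignment-based table, with 0.168 and 0.167 TPM in the read-based one. RNA caught before splicing and RNA that keeps an intron for good cannot be told apart in these values. The reads of exons shared by the models were divided among them by estimation.

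Counted by coding transcripts alone, Dusp2 stood above Dusp1 in both libraries. Protein-coding transcripts of Dusp2 had 68.7 and 58.3 TPM, or 63.5 ± 7.33, and those of Dusp1 28.1 and 50.1 TPM, or 39.1 ± 15.5 (SD, n = 2 each). The ranges did not overlap. The read-based table gave the same order, with 29.3 and 42.2 TPM in Dusp2 and 10.3 and 26.5 TPM in Dusp1.

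The libraries differed in which coding transcript of Dusp1 the reads were assigned to. Dusp1-202, with the full reading frame of 367 codons before the stop, had 26.12 TPM in replicate 1 and 9.77 in replicate 2. Dusp1-206, whose annotated frame of 174 codons starts in exon 3, had 1.97 and 40.31 TPM. The deposited credibility intervals of the 2 libraries did not overlap for either transcript, and they lay in opposite directions. The read-based table was made from the same reads and is thus not independent. It had 2026 and 1079 counts for Dusp1-202 and 8.25 and 1379 counts for Dusp1-206. In TPM of that table, Dusp1-206 rose from 0.0541 in replicate 1 to 16.5 in replicate 2. Dusp1-202 had 10.2 TPM there in replicate 1 and nearly the same in replicate 2. The lower TPM of Dusp1-202 in replicate 2 was thus marked in the alignment-based table only. Dusp1-206 lacks the last 355 bases of the first exon, coding throughout in Dusp1-202, chr17:26507957-26508311, which have a GC content of 70.4%, against 54.9% for the whole of Dusp1-202.

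**Figure D4:**
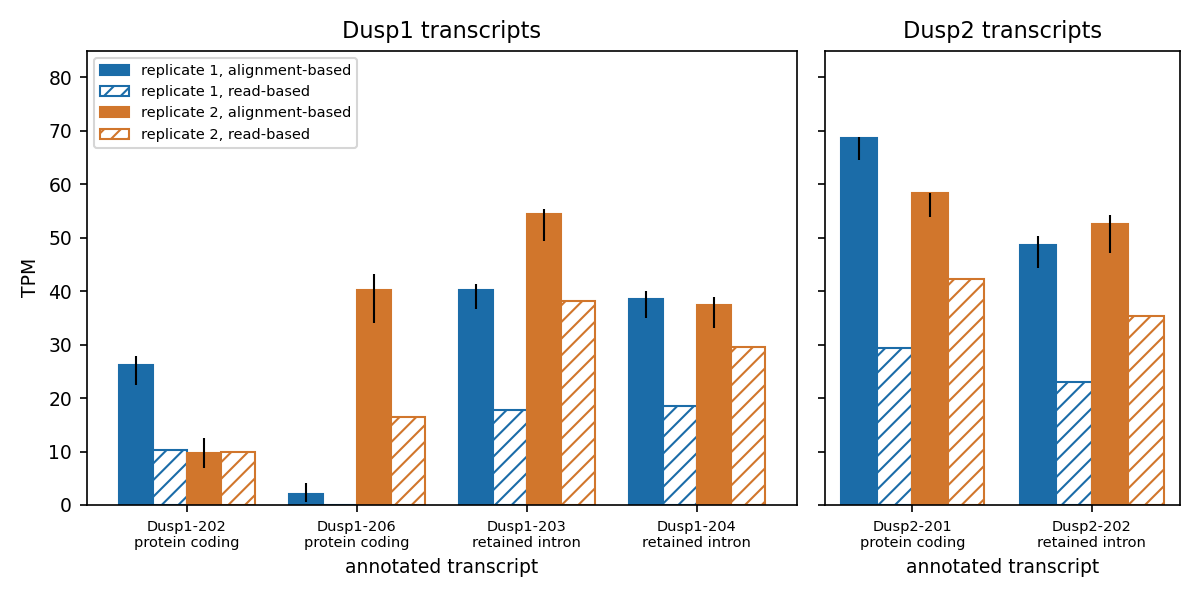
TPM of the Dusp1 and Dusp2 transcripts at 1 TPM or more, by library (blue, replicate 1; orange, replicate 2) and table (filled, alignment-based with its deposited credibility bounds; hatched, read-based). The retained-intron models stand at 37.38 to 54.49 TPM in the alignment-based table, and Dusp1-206 is at 1.97 TPM in replicate 1 and 40.31 in replicate 2.

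Dusp6 showed a like exchange at a low level. Dusp6-201, with 381 codons before the stop, had 1.09 and 0.85 TPM in replicates 1 and 2, with overlapping intervals. Dusp6-204, with 235 codons in the same frame, had 0.35 and 1.5 TPM, with intervals that did not overlap. It lacks the 438 bases of the second exon, chr10:99264544-99264981, all of them coding, with a GC content of 54.8%. The leading coding transcript differed between the libraries in the same way in both tables for Dusp1 and Dusp6, that is for 2 of the 5 members with 2 or more coding transcripts, against 5.55% of such genes listed above 0 and 4.13% of those at 10 TPM. This count was made after the values were seen, and its cause was not tested. The edges of both skipped stretches are printed here with 20 bases inside the stretch in capitals, since they hold most of the bases by which the transcripts of each pair differ, beside small differences at the outer ends. Each line is read along the spliced longer transcript (GENCODE M21), on the minus strand for Dusp1 and the plus strand for Dusp6, so the lower-case bases after a stretch are those of the next exon.
Dusp1 stretch, start: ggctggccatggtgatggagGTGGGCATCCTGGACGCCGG
Dusp1 stretch, end: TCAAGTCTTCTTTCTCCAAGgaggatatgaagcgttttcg
Dusp6 stretch, start: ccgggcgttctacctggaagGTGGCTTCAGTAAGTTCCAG
Dusp6 stretch, end: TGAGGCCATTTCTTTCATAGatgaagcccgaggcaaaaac

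Dusp16 was spread over several models. Dusp16-201 had 1.69 and 1.63 TPM, Dusp16-204 had 1.13 and 2.04, and Dusp16-202 had 0.5 and 2.07. Dusp16-201 led in replicate 1 in both tables, while in replicate 2 Dusp16-202 led in the alignment-based table and Dusp16-204 in the read-based one. Dusp16-203 and Dusp16-205 reached 1.19 and 1.1 TPM in replicate 2 of the read-based table alone, on 28.06 and 24.27 counts. In Dusp2, Dusp8 and Dusp10 the same transcript led throughout, and Dusp4 and Dusp5 have 1 model each. Both tables named the same leading transcript within each library for 4 of 6 members with 2 or more transcripts (Dusp2, Dusp6, Dusp8 and Dusp10), against 62.9% of such genes at 10 TPM and 55.6% of those listed above 0. In replicate 1 they did so for 5 of 6, against 70.4% of such genes at 10 TPM, with Dusp1 the exception, where Dusp1-204 led in the read-based table. In replicate 2 they did so for 5 of 6, against 78.8% of the same genes, with Dusp16 the exception. Of the 25 transcripts, 15 reached 1 TPM in a library of either table.

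By scaled counts, the ratio between the libraries was within 2-fold for each of the 8 members, though the counting intervals of 6 left out 0. The log2 ratio of replicate 2 over replicate 1 of counts scaled by library composition was 0.14 in Dusp1 (counting interval at 95%, 0.09 to 0.19) and -0.42 in Dusp2 (-0.49 to -0.36). It was -0.69 in Dusp4 (-0.93 to -0.46) and 0.42 in Dusp16 (0.25 to 0.59). Those of Dusp6, at 0.33 (-0.02 to 0.67), and Dusp8, at -0.16 (-0.54 to 0.22) but 0.11 on the TPM scale described next, had intervals that held 0. All 6 had a mean count of at least 100, and 0 of them were beyond 2-fold, against 2.54% of protein-coding genes with as many. Dusp5, at 0.74 (0.3 to 1.19), and Dusp10, at 0.69 (0.1 to 1.31), had fewer counts. The central 95% of the protein-coding genes with a mean count of at least 100 lay between -0.82 and 0.85, a range that held all 8 members. The 25th and 75th percentiles of these genes were -0.22 and 0.27, and only Dusp1 and Dusp8 lay between them. With 1 library against 1, none of these ratios has a replicate check.

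**Figure D5:**
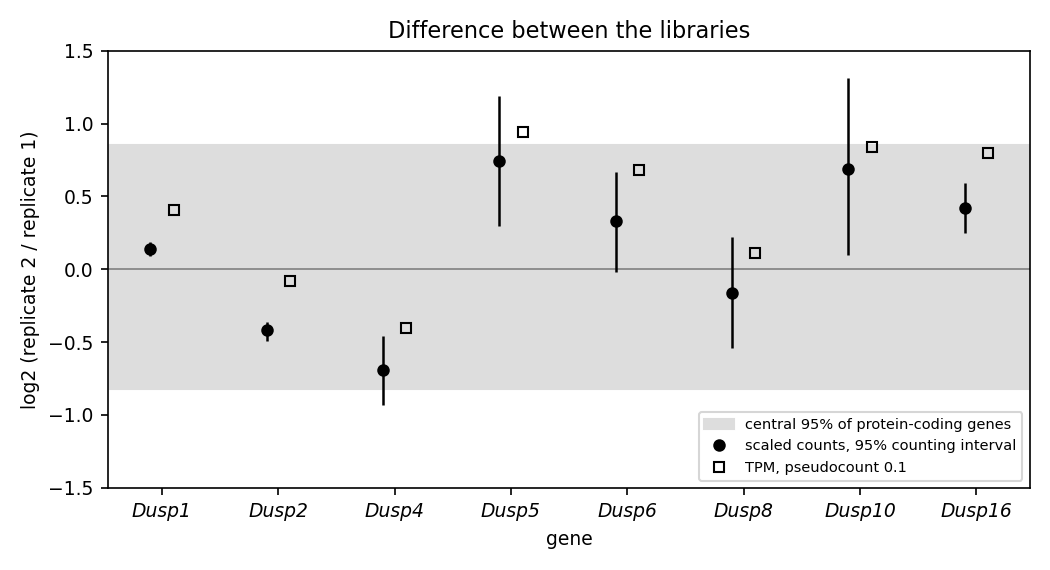
Log2 ratio of replicate 2 over replicate 1 for each member (y axis), from scaled counts with a 95% counting interval (filled) and from TPM with a pseudocount of 0.1 (open). The grey band holds the central 95% of protein-coding genes, -0.82 to 0.85, and every filled point lies within it.

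TPM gave other values than counts. The median log2 difference in TPM, replicate 2 minus replicate 1, was 0.27 over protein-coding genes of at least 1 TPM. On the scale of log2(TPM + 0.1), which understates the change of low genes, Dusp1 had a ratio of 0.41 and Dusp2 of -0.08. The ratio of Dusp5 was 0.94 on this scale, and 1.01 with a pseudocount of 0.01. The deposited credibility intervals of TPM did not overlap between the libraries for 5 of 8 members. Higher in replicate 2 were Dusp1, Dusp5, Dusp6 and Dusp16, that is 4 of 8, against 27.7% of protein-coding genes listed above 0. Lower was Dusp4, 1 of 8, against 4.7%. With replicate 2 divided by the median shift, 5 of 8 were still apart, against 25.5%, with Dusp2 in and Dusp6 out. These bounds give the estimation error within a library, and that of Dusp1 in replicate 2, 133 to 141, does not hold its TPM of 141.95. The direction in TPM also depended on the table. In the read-based table every member was higher in replicate 2, also Dusp4 (2.05 and 2.41 TPM) and Dusp2 (52.4 and 77.6 TPM). By scaled counts of that table, the log2 ratio was still -0.7 for Dusp4 and -0.34 for Dusp2.

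Around these members, the MAP kinases they act on, and the kinases before and after those in the pathway, varied in level. Of 10 MAP kinase genes, 3 reached 10 TPM in each library, and 6 reached 1 TPM. Of all protein-coding genes, 15.6% reached 10 TPM and 41.9% reached 1 TPM in both libraries, beside which each list here and below can be read. The highest MAP kinase gene was Mapk14 (p38 alpha) at 30.8 ± 5.15 TPM (SD, n = 2 here and below). The median of the 10 MAP kinase genes was 7.59 and 8.72 TPM. Of 7 MAP kinase kinases, 2 were at 10 TPM or more, Map2k2 at 19.4 ± 4.06 and Map2k1 at 18.2 ± 0.0283, and the median was 9.94 and 9.63 TPM. Of 10 kinases downstream, 6 were at 10 TPM or more, with a median of 11.7 and 16.3 TPM. They were led by Mapkapk2, the p38-activated kinase MK2, at 51.6 ± 1.18 and Mknk1 at 38.7 ± 4.72 TPM. None of these 27 genes reached 100 TPM in both libraries.

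The remaining phosphatases and the inhibitors of ERK signalling were lower still as lists. Of the other MAP kinase phosphatases, Dusp7 stood at 5.3 ± 1.9 and Dusp9 at 0.025 ± 0.0212 TPM, with 1 and 3 counts for Dusp9. Of 14 atypical dual specificity phosphatases, which lack the kinase-binding domain, 2 were at 10 TPM or more, Dusp11 at 25.1 ± 1.17 and Dusp3 at 19.9 ± 3.51 TPM. Dusp21 and Dusp26 were listed at 0 in both libraries. The median of the list was 0.65 and 1.34 TPM. Of 7 feedback inhibitors of ERK signalling, 1 was at 10 TPM or more, Spred1 at 25.2 ± 1.91, followed by Spred2 at 2.69 ± 1.2 TPM. Spry4 was listed at 0 in both, and the median was 0.57 and 0.94 TPM. Beyond 2-fold between the libraries was 1 of the 30 genes of all these lists whose counts averaged at least 100, Dusp19 at a log2 ratio of 1.05, on 71 and 129 counts.

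The read-based table again put Dusp1 and Dusp2 far above the other members, whose order differed in part. It gave Dusp1 46.8 and 94.2 TPM and Dusp2 52.4 and 77.6 TPM, again with Dusp1 lower in replicate 1 and higher in replicate 2. Neither gene reached 100 TPM in this table. Its retained-intron share was 77.7% and 71.9% in Dusp1, where the median of the 2456 genes was 32.4% and 27.1%. In Dusp2 it was 44.0% and 45.6%. Dusp16 stood above Dusp4 in both libraries of this table, at 2.6 and 6.36 against 2.05 and 2.41 TPM. Dusp5, at 0.417 and 1.21 TPM, and Dusp8, at 0.576 and 0.587 TPM, had ranges that overlapped here. Dusp10, at 0.631 TPM in replicate 2, was above Dusp8 in that library. Overlap with other genes was checked at the loci of the members only, and sharing of reads with like sequences elsewhere was not checked. Exons of Dusp1-201, Dusp5-201 and Dusp8-202 overlap an exon of Ergic1 (583 and 625 counts), AC137853.2 (1.26 and 0) and Gm32786 (0 and 2), each on the opposite strand, and whether strand was used in counting is not stated. Dusp1-201 was listed at 0 in the alignment-based table, and the main models of Dusp1 and Dusp2 overlap no other gene's exons.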

How the data were processed

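The authors' deposited tables were used as they stand, 1 gene table and 2 transcript tables per library. Per the file headers and notes, mm10 was the assembly and GENCODE M21 the annotation. The gene table and 1 transcript table derive from transcriptome alignments (alignment-based) and the other from the read files (read-based). Not given in the sources used here: tools, versions, trimming and strand setting. The authors' deposited expected counts share ambiguous reads among transcripts and were rounded here. The deposited TPM is normalised for effective length to a fixed total, and the authors' FPKM to fragments. The deposited credibility bounds of TPM were used as given. The deposited percent of a gene's TPM in each transcript was recomputed from TPM. Rows of no gene, 1.1% and 0.267% of counts, were left out.

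With 1 group there is no test between groups and no p-value. Ratios used TMM factors of edgeR 4.0.16 (0.997 and 1) and a prior count of 0.5, with Clopper-Pearson intervals at 95%, and were tested on simulated data. The simulated counts held counting error only, so they cannot show how the intervals do with the wider spread between these libraries. DESeq2 1.42.0 size factors, library size, other units, thresholds and the read-based table were alternatives. All 8 members, their transcripts at 1 TPM or more and retained-intron transcripts, and the 2 highest of each pathway list with those at 0 in both libraries, were named, except that a few items are not reported here. No likeness to other genes was computed, as 2 libraries of 1 condition give no pattern. Members, lists and rules were chosen with earlier results of these data known, and other genes named were chosen after their values were seen. Python 3.11.15 with pandas 2.3.3, and R 4.3.3, were used.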

Additional observations from a re-analysis of the deposited data

How the results depend on the processing

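No paired analysis was possible because there is 1 group. Under every alternative run, the count of members at 10 TPM stayed at 2 and with intervals apart at 5. The count beyond 2-fold stayed at 0, but on TPM it left out members with a mean count below 100. Dusp5, with a mean count of 91.0, had a log2 ratio of 1.01 on TPM with a pseudocount of 0.01. The count led by a transcript without a coding sequence stayed at 1. The count with the same leading transcript was less stable. It ran from 4, the value given, to 6, which is every member with 2 or more transcripts. For Dusp8 the ratio between the libraries changed sign on TPM, to 0.11, 0.13 and 0.06 with pseudocounts of 0.1, 0.01 and 1. The construction of TPM, with its fixed total, differs from that of scaled counts, and the cause was not tested further. Of 56 other values of the ratios, 38 stayed within the counting interval with the same sign, 15 moved past it, and the 3 of Dusp8 stayed within it with the other sign. Of 24 alternative mean TPM values, 4 moved past 1 SD. All 4 were among the 8 read-based values, where Dusp1 averaged 70.5, Dusp2 65.0, Dusp4 2.23 and Dusp8 0.581 TPM. The other values came from 1 library alone. Such a value lies within 1 SD of the mean of 2 by construction, so these could not move. Of 9 retained-intron shares, that of Dusp16 moved, to 4.55% in the read-based table. The shares from 1 library alone could likewise not pass 1 SD. Depth limits Dusp10 and Dusp5 most.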

Other observations

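The kinases and inhibitors around the phosphatases also have retained-intron models. At 10 TPM or more in both libraries stood 8 genes of the pathway lists with such a model, and in 0 of them did it hold 50% or more of TPM in both libraries, against 11.5% of all 2456 such protein-coding genes, a share at which 8 genes may well hold none. Their median share was 22.9% in replicate 1 and 19.4% in replicate 2, against 27.9% and 22.5% over those genes, and their values ran from 6.89% to 36.4%. The highest was Map2k2, a kinase that activates ERK, at 36.4% and 30.4%. Below 10 TPM, Mapk8, which encodes the kinase JNK1, had 63.1% and 64.9% of its TPM in retained-intron models, at a gene level of 5.65 and 8.53 TPM. The read-based table gave 63.8% and 69.1%. Spred3, an inhibitor of ERK signalling, had 59.0% and 54.3%, on 144 and 92 counts in all. These genes were chosen after their values were seen.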
